A study of Mus musculus with 12 samples.

Results

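The genes described here encode the secreted and cell-surface parts of the Wnt pathway in the mouse growth plate. They are the Wnt ligands, the Frizzled and Lrp receptors, the R-spondins and their Lgr receptors, the secreted antagonists of the Sfrp and Dkk families with Frzb and Wif1, and the pathway genes Axin2 and Lef1. All probes whose gene symbol in the array annotation belongs to these families were taken, without regard to signal, which gave 75 of 41174 probes and 50 of 19526 named genes. Of these 50 genes, 49 had a probe that exceeded background clearly in 4 or more of the 12 samples and were tested. The exception was Dkk4, a Dickkopf antagonist. Among the tested genes, 47 were well above background in all 12 samples. Dkk2 and Wnt2 were not.

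Wnt proteins are secreted lipid-modified ligands that bind Frizzled receptors, with Lrp5 or Lrp6 as co-receptor in the beta-catenin branch and with other co-receptors in the planar polarity and calcium branches. Antagonists act outside the cell: Sfrp proteins, Frzb and Wif1 bind the ligands, and Dkk1 and Dkk2 block the Lrp co-receptors. R-spondins bind Lgr receptors and keep Frizzled on the cell surface. In growth plate cartilage the pathway is known for its part in the passage of chondrocytes from proliferation to hypertrophy and in bone formation beside the cartilage.

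Femoral growth plates of Swiss White mice 14 days old, for which no treatment or genetic change is given, were cut into their proliferative, prehypertrophic and hypertrophic zones by microdissection of frozen sections. Amplified RNA was hybridised in pairs to 6 Agilent arrays of 2 colours, which gave 4 samples of each zone. Each pair of zones shared 2 arrays with the dyes exchanged. Nothing in the labels ties the 4 samples per zone to different animals, so p-values measure the spread between these samples, which may be technical. A level below is the log2 signal of a gene's brightest probe less the 75th percentile of the sample's signals, and levels of different genes are not comparable. Differences were fitted with limma to the log2 ratios within arrays, and a gene was called higher or lower where the p-value adjusted over 27173 features was under 0.05. The number of arrays limits the precision.

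In each sample 92.6% to 96.2% of the spots were well above background. Samples of the same zone correlated at 0.958 to 0.977 over probes, and samples of different zones at 0.886 to 0.964, so these ranges overlapped. The second hybridisation, of hypertrophic and proliferative replicates 2, carried 4479 of the 7249 ratios left out because the scanner software marked a spot as an outlier. All 9 chondrocyte markers were well above background in every sample. In the hypertrophic against the proliferative zone 4 of them were lower, with Sox9 at -2.71, Matn3 at -1.57, Matn1 at -1.70 and Col9a1 at -1.33 on the log2 scale, and 1 was higher, while Col2a1, Acan, Col11a1, Comp and Hapln1 had saturated spots in 2 to 4 samples of each zone. The summed signal of 6 hypertrophic chondrocyte markers, in units of the sample's 75th percentile, ranged from 4.34 to 12.7 in the proliferative, from 100.9 to 150.5 in the prehypertrophic and from 193.1 to 286.2 in the hypertrophic samples. Summed signals of markers of marrow and bone cells were also highest in the hypertrophic samples, though not every gene of these lists was. Sums for 9 neutrophil and monocyte markers ran from 7.60 to 16.0, from 8.62 to 19.0 and from 176.3 to 245.8 in the same order of zones, and 8 of the 9 were higher in the hypertrophic than in the proliferative zone. For 6 osteoblast markers they ran from 76.1 to 104.9, from 42.0 to 49.0 and from 140.7 to 212.8, and for 7 endothelial markers from 2.15 to 2.55, from 2.22 to 3.06 and from 8.55 to 10.6, with 4 of the 7 higher in the same comparison. Col1a1 and Col1a2 make up most of the osteoblast sum, and Sp7, the osteoblast transcription factor, was lower in the hypertrophic than in the proliferative zone (log2 -0.71, adjusted p = 0.000631). Sums for 6 perichondrium and fibroblast markers were lowest in the hypertrophic samples. They ran from 67.25 to 103, from 62.86 to 112.9 and from 28.17 to 35.27 in the same order of zones. By gene, 3 of these 6 were higher and 2 lower in the hypertrophic than in the proliferative zone. The part of these cells in the differences below was not tested, and fewer cells of a type cannot be told apart from less RNA per cell in such samples.

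In the hypertrophic against the proliferative zone, the receptor genes Fzd1, Fzd2, Fzd7 and Fzd9 and the R-spondin gene Rspo3 were lower. The antagonist genes Frzb and Dkk1 were higher, and the antagonist genes Sfrp1 and Sfrp5 were lower. Of the 49 members, 11 were higher and 21 lower in the hypertrophic than in the proliferative zone, 65.3% in all, where 58.9% of all features passed (28.2% higher and 30.7% lower). In the prehypertrophic against the proliferative zone 13 were higher and 10 lower, which is 46.9% against 45.9% of all features (23.4% higher and 22.5% lower). In the hypertrophic against the prehypertrophic zone 8 were higher and 19 lower, which is 55.1% against 58.1% (28.0% higher and 30.0% lower). The members were thus called about as often as any feature. Changes of at least 2-fold were made by 30.6% of the members in the hypertrophic to proliferative comparison, 6 higher and 9 lower, against 14.8% of all features (8.99% and 5.81%). At the first step 16.3% did so, 3 higher and 5 lower, against 7.68% (3.27% and 4.41%). At the second step it was 20.4%, 3 higher and 7 lower, against 10.4% (7.31% and 3.11%). The median log2 change of the members was -0.13, -0.01 and -0.19 in these comparisons, in the order given, and that of all features was -0.03, 0.02 and -0.04. Of the members, 14 passed in no comparison, and the matching share of all features was not counted.

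**Figure D1:**
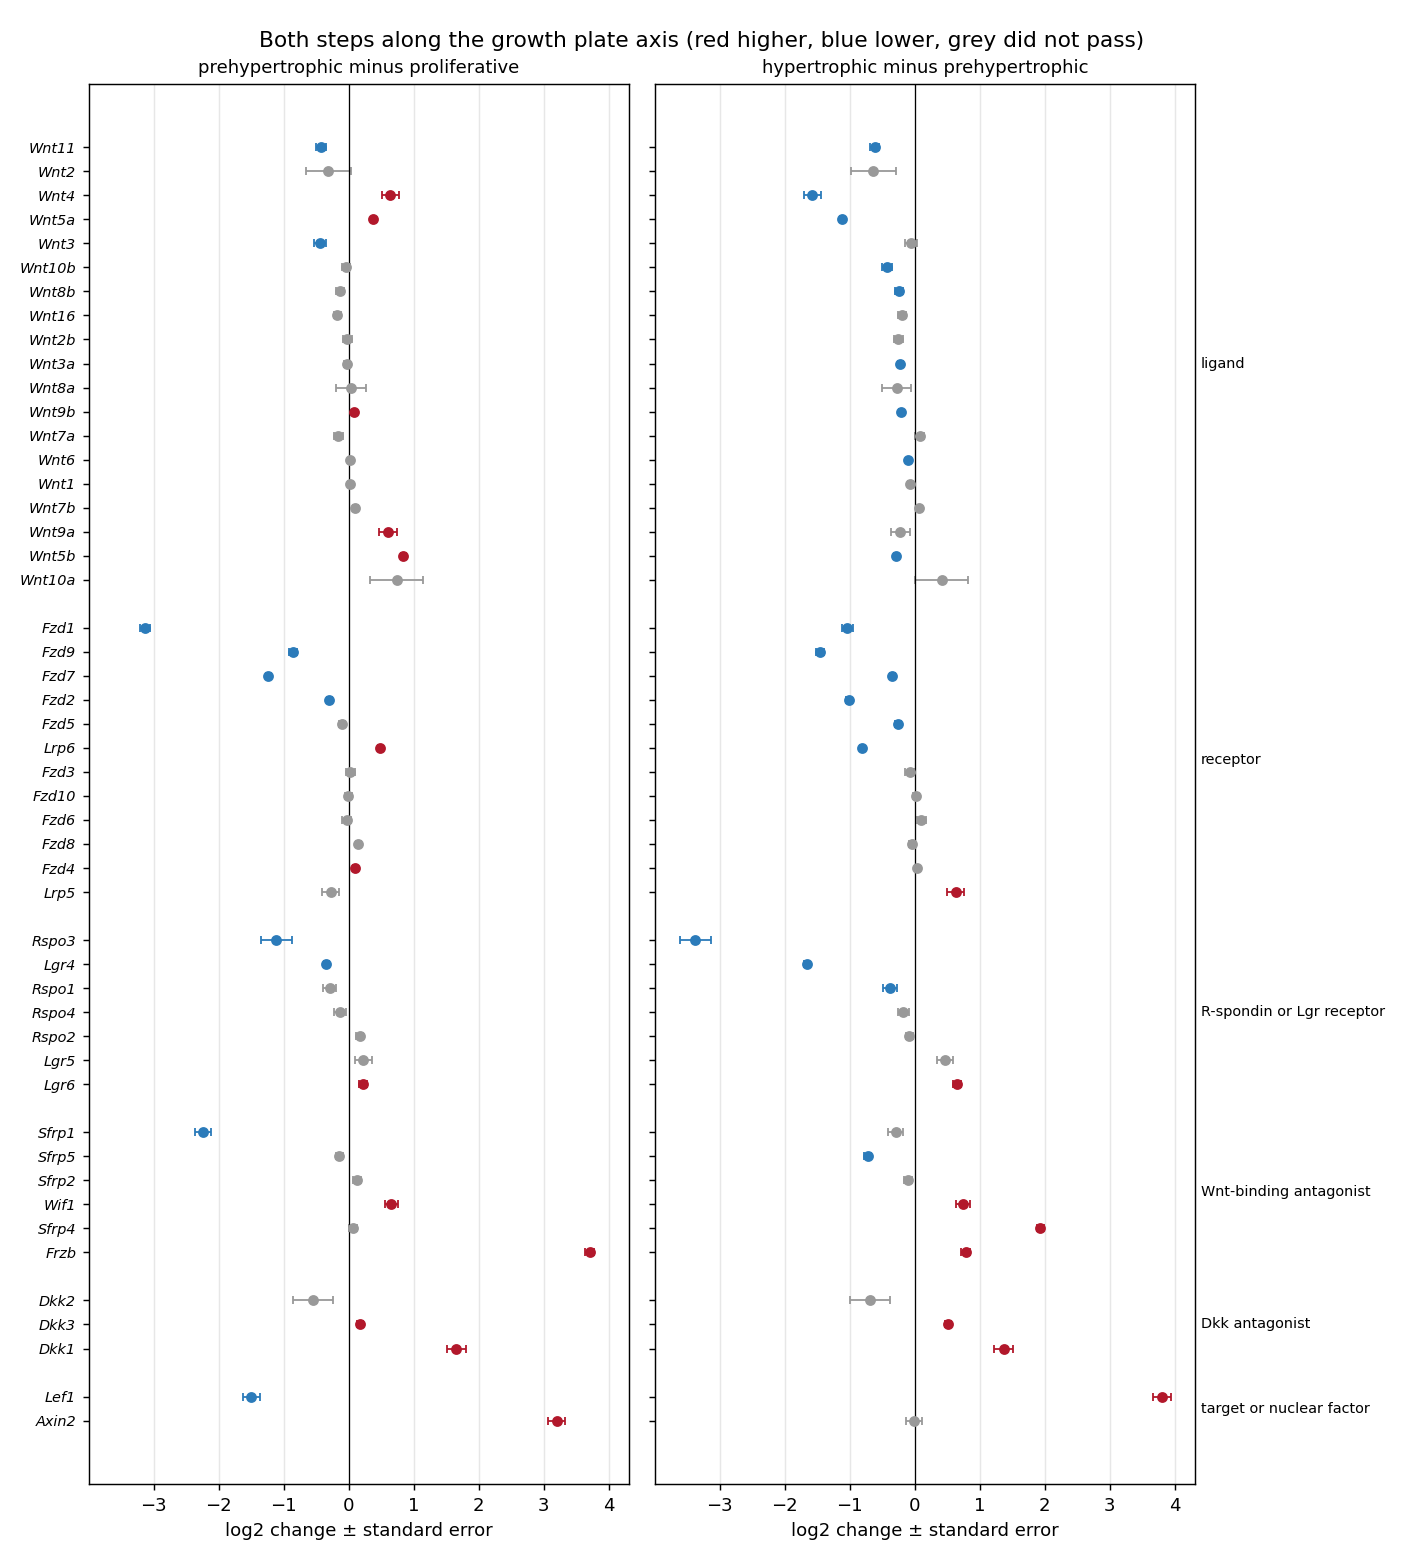
Log2 change with its standard error for the 49 tested members, grouped by role, from the proliferative to the prehypertrophic zone on the left and from the prehypertrophic to the hypertrophic zone on the right. Frzb and Axin2 rose by 3.71 and 3.20 at the first step and Lef1 rose by 3.80 at the second, while Fzd1 fell by 3.13 at the first step and Rspo3 fell by 3.38 at the second.

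The 16 members below changed at least 2-fold in some comparison and were well above background in all 4 samples of some zone. Over all features, 19.6% changed that much in some comparison. Of the 16 members, 7 fell at both steps of the axis (Fzd1, Fzd2, Fzd7, Fzd9, Lgr4, Rspo3 and Wnt11), and 3 rose at both (Dkk1, Frzb and Wif1). The shares of all features that fell or rose at both steps were not counted, so whether these counts are unusual was not tested. Wnt4 and Wnt5a were highest in the prehypertrophic zone and Lef1 was lowest there. Axin2 rose and Sfrp1 fell at the first step with no call at the second, and Sfrp4 rose at the second step with no call at the first. The shares of all features called at only the first or only the second step were not counted.

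**Figure D2:**
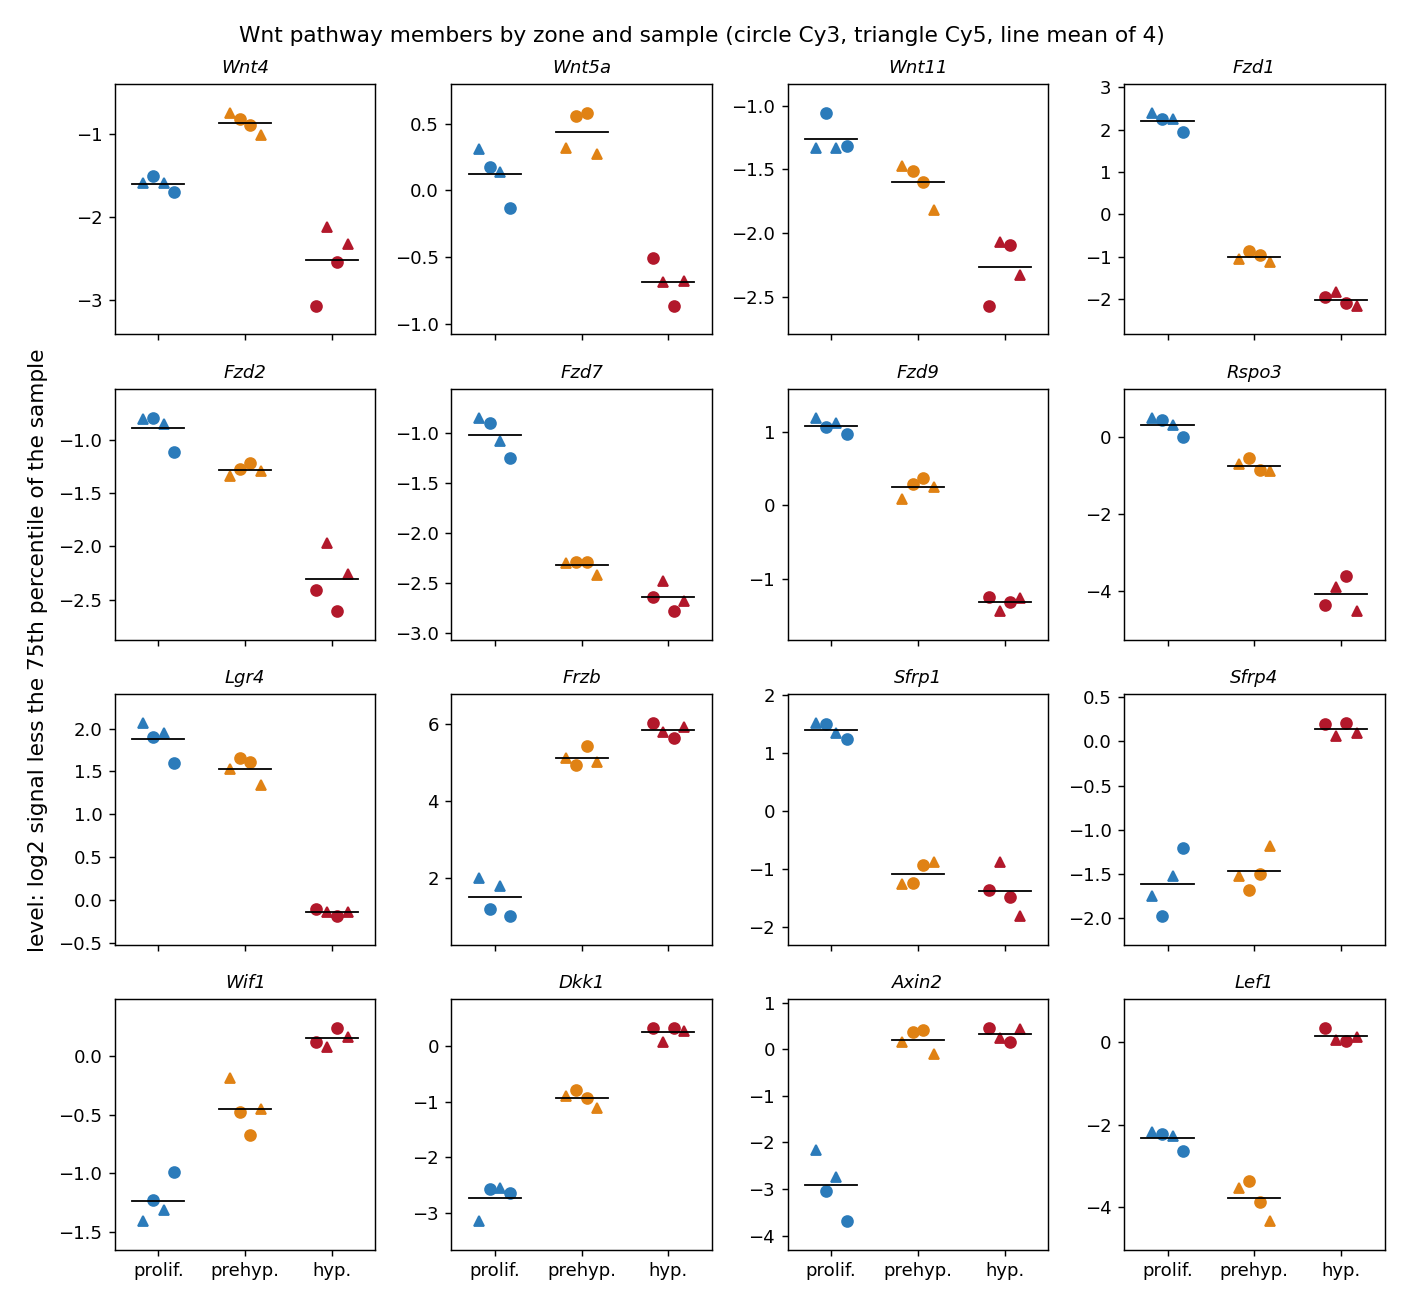
Level of each of the 16 members in every sample, as log2 signal less the 75th percentile of that sample, with circles for Cy3, triangles for Cy5 and a line at the mean of 4 samples. The hypertrophic samples lie between -4.52 and -3.61 for Rspo3 and between 5.66 and 6.04 for Frzb, apart from the other zones in both panels.

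By their brightest probes, none of the 19 Wnt ligands was higher in the hypertrophic than in the prehypertrophic zone, and 9 were lower. Over all features, 28.0% were called higher and 30.0% lower. A dimmer Wnt6 probe was higher at this step, by 0.46 on the log2 scale (limma adjusted p = 0.000925 over probes). From the proliferative to the prehypertrophic zone 5 ligands rose and 2 fell, against 23.4% and 22.5% of all features, and 12 did not pass. Their median log2 change was 0.02 at the first step and -0.22 at the second. Most changes were small: none reached 2-fold at the first step and 2 did at the second.

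Wnt4, a ligand known from chick limb cartilage to promote chondrocyte maturation, had levels of -1.59, -1.50, -1.59 and -1.70 in the proliferative samples. It stood at -0.74, -0.81, -0.89 and -1.0 in the prehypertrophic samples and at -3.06, -2.11, -2.54 and -2.33 in the hypertrophic samples. All prehypertrophic samples lay above all others, and the zones did not overlap. Wnt4 rose 1.56-fold at the first step (log2 0.64, SE 0.13, limma adjusted p = 0.0171) and fell 2.98-fold at the second (log2 -1.57, SE 0.13, adjusted p = 0.000812). The first of these calls was lost without array 4 (adjusted p = 0.0572) and without array 5 (adjusted p = 0.0831).

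Wnt5a, a ligand of the branch that does not need beta-catenin and a regulator of chondrocyte zones in mice, had levels of 0.31, 0.17, 0.14 and -0.13 in the proliferative samples. Its prehypertrophic levels were 0.32, 0.56, 0.58 and 0.27, and its hypertrophic levels were -0.51, -0.69, -0.86 and -0.68. The hypertrophic samples were the lowest, and the other zones overlapped. Wnt5a fell 2.18-fold at the second step (log2 -1.12, SE 0.023, adjusted p = 4.32e-05) after a rise of 1.30-fold at the first (adjusted p = 0.000442). Averaged over its probes, the first change was 0.20 on the log2 scale and did not pass (adjusted p = 0.545).

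By the brightest probes, Wnt5b, the nearest relative of Wnt5a, was the ligand called higher in the hypertrophic than in the proliferative zone. The change of Wnt5b was 0.56 on the log2 scale (adjusted p = 0.000284). It was highest in the prehypertrophic zone, at 1.86 to 2.16, against 1.06 to 1.34 in the proliferative and 1.65 to 1.86 in the hypertrophic samples. The second probe of Wnt5b gave 0.29 at the first step and -0.15 at the second, neither of which passed. Wnt9b also had its highest level in the prehypertrophic zone, with log2 changes of 0.09 and -0.22 at the steps. In all, 5 members had this pattern (Wnt4, Wnt5a, Wnt5b, Wnt9b and the co-receptor gene Lrp6), against 11.0% of all features, and Lef1 had the reverse pattern, against 10.7%.

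Wnt11, a ligand of the branches that do not need beta-catenin, fell along the axis. Its levels were -1.33, -1.05, -1.33 and -1.32 in the proliferative, -1.47, -1.51, -1.60 and -1.82 in the prehypertrophic, and -2.57, -2.07, -2.09 and -2.33 in the hypertrophic samples. The zones did not overlap. Wnt11 was 2.05-fold lower in the hypertrophic than in the proliferative zone (log2 -1.04, SE 0.075, adjusted p = 0.000493). The fall at the first step was 1.34-fold (adjusted p = 0.0126) and was no longer called without array 6 (adjusted p = 0.0727). The other 8 ligands called lower in the hypertrophic than in the proliferative zone changed by -0.93 to -0.13 on the log2 scale, with Wnt4 and Wnt9b at the ends.

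Of the 12 receptor genes, 6 were lower and 1 higher in the hypertrophic than in the proliferative zone, against 30.7% and 28.2% of all features. The 4 that fell by at least 2-fold were Frizzled genes. Fzd1 showed the largest change of any receptor. Its levels were 2.40, 2.25, 2.24 and 1.95 in the proliferative samples, -1.06, -0.86, -0.95 and -1.11 in the prehypertrophic samples and -1.96, -1.84, -2.10 and -2.15 in the hypertrophic samples. The proliferative samples stood far above the others, and the zones did not overlap. Fzd1 was 8.78-fold lower in the prehypertrophic than in the proliferative zone (log2 -3.13, SE 0.082, adjusted p = 6.31e-05) and 2.05-fold lower again in the hypertrophic zone (log2 -1.04, SE 0.082, adjusted p = 0.000753). On the arrays that paired the zones directly, the hypertrophic to proliferative log2 ratio was -4.28 and -4.00.

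Fzd9, a Frizzled gene with a known role in bone formation in mice, had levels of 1.20, 1.06, 1.12 and 0.97 in the proliferative samples. It reached 0.08, 0.29, 0.37 and 0.25 in the prehypertrophic and -1.26, -1.44, -1.32 and -1.27 in the hypertrophic samples. It fell at both steps with no overlap, by 1.80-fold at the first (log2 -0.85, SE 0.063, adjusted p = 0.000778) and 2.75-fold at the second (log2 -1.46, SE 0.063, adjusted p = 0.000142).

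Fzd7 levels were -0.85, -0.90, -1.09 and -1.25 in the proliferative, -2.30, -2.29, -2.29 and -2.42 in the prehypertrophic and -2.64, -2.48, -2.77 and -2.68 in the hypertrophic samples. Most of its fall lay at the first step, 2.35-fold (log2 -1.23, SE 0.035, adjusted p = 7.48e-05), and the second step was 1.27-fold (adjusted p = 0.00166). Its second probe changed by -0.11 and -0.28 at these steps and passed at neither. Fzd2, which forms a subfamily with Fzd1 and Fzd7, fell mainly at the second step. Fzd2 levels were -0.80, -0.79, -0.85 and -1.12 in the proliferative, -1.34, -1.27, -1.22 and -1.29 in the prehypertrophic and -2.41, -1.97, -2.60 and -2.26 in the hypertrophic samples. The zones did not overlap, and the second step was 2.02-fold (log2 -1.02, SE 0.042, adjusted p = 0.000127). The first step was 1.23-fold lower (adjusted p = 0.00613), and this call was lost without the dye term (adjusted p = 0.0843).

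Lrp6, a co-receptor for the beta-catenin branch, rose by 0.48 on the log2 scale at the first step (adjusted p = 0.000548) and was lower by -0.81 at the second (adjusted p = 0.000111). Its second probe gave -0.12 and -0.40 and passed at neither step. Lrp5, the related co-receptor, rose by 0.63 at the second step (adjusted p = 0.015), but these zones overlapped. The direct Lrp5 log2 ratio at that step was -0.03 on array 3, with the hypertrophic sample in Cy3, and 1.31 on array 4, with it in Cy5. In the other pairs of zones the ratio was also lower with the later zone in Cy3. It was -0.66 and 1.34 on arrays 1 and 2, and -1.37 and 0.84 on arrays 5 and 6. The fit included a dye term. Fzd4 was higher by 0.10 at the first step (adjusted p = 0.047) and by 0.13 in the hypertrophic against the proliferative zone (adjusted p = 0.0139). In the latter comparison Fzd5 was lower by -0.35 (adjusted p = 0.00338). Its second probe gave 0.26 there and did not pass (adjusted p = 0.22 over probes). Fzd3, Fzd6, Fzd8 and Fzd10 passed in no comparison, with log2 changes of -0.08 to 0.15 for the probes used.

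Of the R-spondins and Lgr receptors, 3 were lower and 2 higher in the hypertrophic than in the proliferative zone, against 30.7% and 28.2% of all features, and 2 did not pass. Rspo3 encodes R-spondin 3, a secreted ligand of Lgr4, Lgr5 and Lgr6. It had levels of 0.52, 0.46, 0.32 and 0.02 in the proliferative samples, -0.70, -0.55, -0.86 and -0.88 in the prehypertrophic samples and -4.36, -3.90, -3.61 and -4.52 in the hypertrophic samples. The hypertrophic samples lay far below the rest, and no zones overlapped. Rspo3 was 22.5-fold lower in the hypertrophic than in the proliferative zone (log2 -4.49, SE 0.24, adjusted p = 0.00019), with 10.4-fold of this at the second step (log2 -3.38, SE 0.24, adjusted p = 0.000561). The second probe of Rspo3 fell by 0.47 between the proliferative and hypertrophic zones (adjusted p = 0.0294), and with both probes averaged the change was -2.48. At the first and second steps the second probe gave -0.22 (adjusted p = 0.218) and -0.25 (adjusted p = 0.148) and passed at neither. With both probes averaged the second step was -1.81 (adjusted p = 0.00105). By the brightest probe the fall at the first step was 2.16-fold (adjusted p = 0.0223). It was not called without array 1 (adjusted p = 0.0548), array 5 (adjusted p = 0.119) or array 6 (adjusted p = 0.0686).

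Lgr4, a receptor of the R-spondins, fell at the second step. Its levels were 2.07, 1.90, 1.95 and 1.60 in the proliferative, 1.52, 1.65, 1.61 and 1.34 in the prehypertrophic and -0.10, -0.14, -0.18 and -0.14 in the hypertrophic samples. The hypertrophic samples were all lowest, and the other zones overlapped. The second step was 3.16-fold (log2 -1.66, SE 0.038, adjusted p = 4.64e-05). Another Lgr4 probe gave -1.63 at that step, and the remaining probes changed by -0.034 and -0.0046. The first step was 1.27-fold (adjusted p = 0.00272), and it did not pass when the probes were averaged (adjusted p = 0.0705).

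Rspo1 was lower in the hypertrophic than in the proliferative zone, by -0.67 on the log2 scale (adjusted p = 0.00639). Lgr6 was higher by 0.87 (adjusted p = 0.000335), although its second probe changed by -0.04, and Lgr5 was higher by 0.69 (adjusted p = 0.0314). For Lgr5 these zones overlapped, the ratio of array 2 was left out, and the direct log2 ratio on array 1 was 1.04. Lgr5 passed at neither step, with log2 changes of 0.23 (adjusted p = 0.259) and 0.47 (adjusted p = 0.053). Rspo2 and Rspo4 passed in no comparison.

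Of the 6 antagonists that bind Wnt ligands, 3 were higher in the hypertrophic than in the proliferative zone (Frzb, Sfrp4 and Wif1) and 2 lower (Sfrp1 and Sfrp5), against 28.2% and 30.7% of all features, and Sfrp2 did not pass. Frzb, a secreted decoy with a Frizzled-like domain first known from cartilage, showed the largest rise of all members from the proliferative to the hypertrophic zone. Its levels were 2.00, 1.18, 1.79 and 1.02 in the proliferative samples, 5.12, 4.94, 5.44 and 5.01 in the prehypertrophic samples and 6.04, 5.79, 5.66 and 5.92 in the hypertrophic samples. The proliferative samples were the lowest and the hypertrophic the highest, with no overlap. Frzb was 13.1-fold higher in the prehypertrophic than in the proliferative zone (log2 3.71, SE 0.065, adjusted p = 4.24e-05) and a further 1.72-fold higher in the hypertrophic zone (log2 0.78, SE 0.065, adjusted p = 0.000888). The direct prehypertrophic to proliferative log2 ratio was 3.61 on array 5 and 3.96 on array 6.

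Sfrp1, a secreted Frizzled-related protein that binds Wnts, moved the opposite way at the first step. Its levels were 1.52, 1.5, 1.35 and 1.24 in the proliferative, -1.27, -1.24, -0.94 and -0.89 in the prehypertrophic and -1.36, -0.88, -1.49 and -1.81 in the hypertrophic samples. The proliferative samples were all highest, and the later zones overlapped. The first step was 4.74-fold lower (log2 -2.24, SE 0.12, adjusted p = 0.000306), and the second did not pass (log2 -0.29, 95% interval -0.62 to 0.03, adjusted p = 0.104). A second Sfrp1 probe gave -0.54 at the first step and passed (adjusted p = 0.027).

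Sfrp4, a member of the same family with a known part in bone remodelling, had levels of -1.75, -1.97, -1.52 and -1.20 in the proliferative and -1.53, -1.68, -1.50 and -1.18 in the prehypertrophic samples. It reached 0.20, 0.06, 0.21 and 0.10 in the hypertrophic samples, above every other sample, and the earlier zones overlapped. Sfrp4 rose 3.82-fold at the second step (log2 1.93, SE 0.060, adjusted p = 6.87e-05), and the first step gave log2 0.06 (95% interval -0.10 to 0.23, adjusted p = 0.443). The osteoblast, neutrophil and endothelial marker sums given above were also highest in the hypertrophic samples. Of the 6 osteoblast markers, 4 rose at the second step, whereas Sp7 (log2 -0.32, adjusted p = 0.00936) and Bglap, the osteocalcin gene (log2 -0.26, adjusted p = 0.00455), fell there. The part of these cells in the Sfrp4 difference was not tested.

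Wif1, a secreted inhibitor that binds Wnt ligands through its own WIF domain, had levels of -1.41, -1.23, -1.31 and -0.99 in the proliferative samples. Its prehypertrophic levels were -0.19, -0.48, -0.67 and -0.46, and its hypertrophic levels were 0.12, 0.07, 0.24 and 0.17. It rose in even steps without overlap, 1.58-fold at the first (log2 0.66, SE 0.10, adjusted p = 0.00784) and 1.67-fold at the second (log2 0.74, SE 0.10, adjusted p = 0.00413). Sfrp5 was lower in the hypertrophic than in the proliferative zone by -0.86 (adjusted p = 0.000255).

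Dkk1, which binds Lrp5 and Lrp6 and keeps them from Wnt, rose at both steps. Its levels were -3.14, -2.57, -2.54 and -2.64 in the proliferative, -0.89, -0.79, -0.94 and -1.11 in the prehypertrophic and 0.33, 0.08, 0.33 and 0.27 in the hypertrophic samples. The zones were stacked without overlap. Dkk1 was 8.15-fold higher in the hypertrophic than in the proliferative zone (log2 3.03, SE 0.14, adjusted p = 0.000133), 3.16-fold of it at the first step (adjusted p = 0.00129) and 2.58-fold at the second (adjusted p = 0.00186). A second Dkk1 probe changed less, by 0.91 over the whole axis, and passed (adjusted p = 0.000674). Dkk3, a family member that does not act on Lrp6 as Dkk1 does, was higher by 0.69 (adjusted p = 0.000359). Dkk2 was fitted lower in the hypertrophic than in the proliferative zone by -1.23 (adjusted p = 0.0268). However, Dkk2 was not well above background in any hypertrophic sample and was so in only 2 proliferative samples, so the size of this change is uncertain.

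Axin2 is a scaffold of the complex that degrades beta-catenin and is widely used as a readout of the beta-catenin branch, because that branch switches it on. Its levels were -2.15, -3.05, -2.75 and -3.68 in the proliferative samples, 0.16, 0.37, 0.41 and -0.09 in the prehypertrophic samples and 0.47, 0.26, 0.15 and 0.44 in the hypertrophic samples. The proliferative samples were the lowest and spread widely (SD 0.64), and the later zones overlapped. Axin2 was 9.19-fold higher in the prehypertrophic than in the proliferative zone (log2 3.20, SE 0.13, adjusted p = 0.000144). Between the later zones the log2 difference was -0.01 (95% interval -0.36 to 0.34, adjusted p = 0.957). The direct first-step ratios were 3.12 on array 5 and 3.55 on array 6.

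Lef1, a DNA-binding partner of beta-catenin that is also expressed in lymphocytes and osteoblasts, had another pattern. Its levels were -2.19, -2.24, -2.27 and -2.64 in the proliferative, -3.53, -3.37, -3.88 and -4.32 in the prehypertrophic and 0.34, 0.05, 0.01 and 0.12 in the hypertrophic samples. The prehypertrophic samples were the lowest and the hypertrophic the highest, with no overlap. The brightest probe fell 2.82-fold at the first step (log2 -1.49, SE 0.13, adjusted p = 0.00143) and rose 14.0-fold at the second (log2 3.80, SE 0.13, adjusted p = 8.91e-05). The other Lef1 probes changed by -0.20 and 0.70 at the first step and by 0.25 and -0.49 at the second, and none of these passed. With the probes averaged the log2 changes were -0.20 (adjusted p = 0.781) and 1.32 (adjusted p = 0.0837), and that from the proliferative to the hypertrophic zone was 1.12 (adjusted p = 0.119), so the Lef1 calls rest on 1 probe. The osteoblast marker sums were also lowest in the prehypertrophic and highest in the hypertrophic samples, but at the first step 2 of the 6 osteoblast markers rose and 3 fell. Sums of 9 lymphocyte markers ran from 5.84 to 7.16, from 6.53 to 7.93 and from 12.8 to 13.5 along the axis, and 6 of the 9 rose and 1 fell at the second step. Those of 5 markers of cycling cells ran from 61.0 to 75.7, from 5.37 to 7.08 and from 66.5 to 74.0, with 4 of the 5 lower at the first step and 5 of 5 higher at the second. The part of these cells in the Lef1 difference was not tested.

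**Figure D3:**
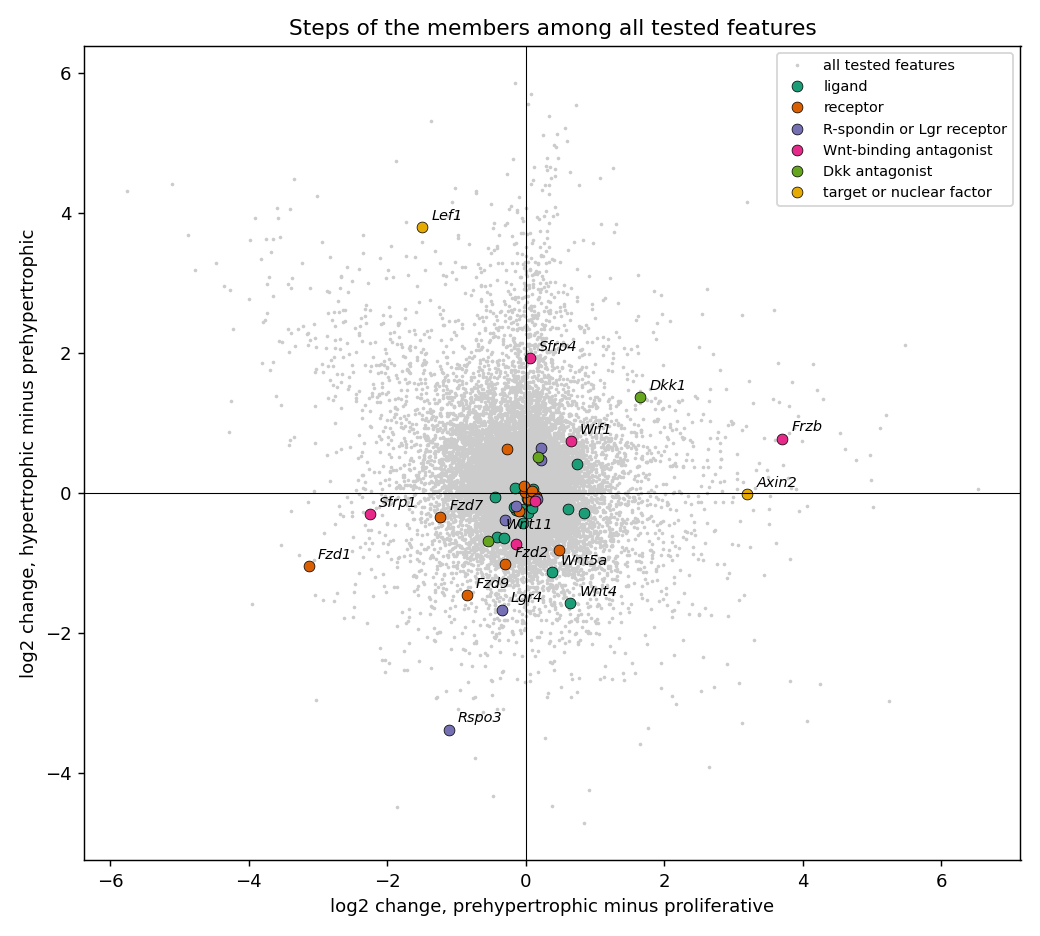
Log2 change from the prehypertrophic to the hypertrophic zone against that from the proliferative to the prehypertrophic zone, for all 27173 tested features in grey and the 49 members coloured by role, with the 16 members named. Frzb and Axin2 lie far to the right (3.71 and 3.20), Lef1 lies at the top (3.80), Rspo3 lies at the bottom (-3.38) and Fzd1 lies on the left (-3.13).

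Promoters are printed for Axin2, Frzb and Dkk1, which rose most at the first step, and for Fzd1, which fell most there. Each sequence runs from 250 bases before to 50 bases after the RefSeq start of the gene, 5′ to 3′ on the strand of the gene, in build GRCm38.p6, and capitals mark a match to the sites bound by TCF and LEF proteins. The sites searched were CTTTG with 2 further bases, each A or T, on either strand. The Axin2 window is chr11:108920099-108920398 on the plus strand, that of Frzb is chr2:80447347-80447646 on the minus strand, that of Dkk1 is chr19:30549447-30549746 on the minus strand and that of Fzd1 is chr5:4758167-4758466 on the minus strand.
Axin2: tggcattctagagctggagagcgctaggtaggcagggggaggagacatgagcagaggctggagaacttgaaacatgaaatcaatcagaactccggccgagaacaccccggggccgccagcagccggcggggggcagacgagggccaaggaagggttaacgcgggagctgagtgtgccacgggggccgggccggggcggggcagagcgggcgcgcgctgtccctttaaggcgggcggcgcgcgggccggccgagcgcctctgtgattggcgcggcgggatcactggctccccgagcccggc
Frzb: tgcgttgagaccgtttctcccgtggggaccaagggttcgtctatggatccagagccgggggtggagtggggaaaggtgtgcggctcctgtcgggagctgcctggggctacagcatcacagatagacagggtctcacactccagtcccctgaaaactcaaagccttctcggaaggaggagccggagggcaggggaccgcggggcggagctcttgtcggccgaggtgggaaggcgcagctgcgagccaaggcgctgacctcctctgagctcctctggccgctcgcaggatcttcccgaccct
Dkk1: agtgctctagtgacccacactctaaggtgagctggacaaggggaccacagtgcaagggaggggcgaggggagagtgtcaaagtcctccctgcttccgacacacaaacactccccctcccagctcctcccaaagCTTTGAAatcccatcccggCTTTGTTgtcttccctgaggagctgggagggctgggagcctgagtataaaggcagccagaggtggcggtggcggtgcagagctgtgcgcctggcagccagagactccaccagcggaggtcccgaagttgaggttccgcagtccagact
Fzd1: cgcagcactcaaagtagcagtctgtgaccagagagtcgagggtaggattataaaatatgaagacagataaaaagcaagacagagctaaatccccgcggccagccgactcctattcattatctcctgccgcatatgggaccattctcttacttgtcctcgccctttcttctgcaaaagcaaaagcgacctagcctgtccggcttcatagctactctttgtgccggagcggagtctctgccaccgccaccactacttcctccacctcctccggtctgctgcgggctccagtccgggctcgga

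The Dkk1 window held CTTTGAA, with its first base at -117 from the start, and CTTTGTT, with its first base at -98, both on the strand of the gene. No match stood in the windows of Axin2, Frzb and Fzd1, which says only that these letters are not there. Of all 32851 promoters in the table, 16.9% held a match, and 6 of 39 promoters of the members did, which is 15.4%. A match is a description of letters and not a bound site.

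The array held several probes for some genes, and they did not always move alike. Of the 16 members with values in every sample above, 8 had 1 kept probe (Axin2, Frzb, Fzd1, Fzd9, Sfrp4, Wif1, Wnt4 and Wnt11) and 8 had several. Among these 8, the probes of Fzd2 differed least over the axis, with hypertrophic to proliferative log2 changes of -1.31 and -1.25. For Rspo3, Sfrp1 and Dkk1 the dimmer probe moved the same way over the axis and passed, with a smaller change. That of Rspo3 passed at neither single step. For Fzd7, Lef1 and Wnt5a no dimmer probe passed in this comparison, and for Lgr4 1 of 3 did.

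**Figure D4:**
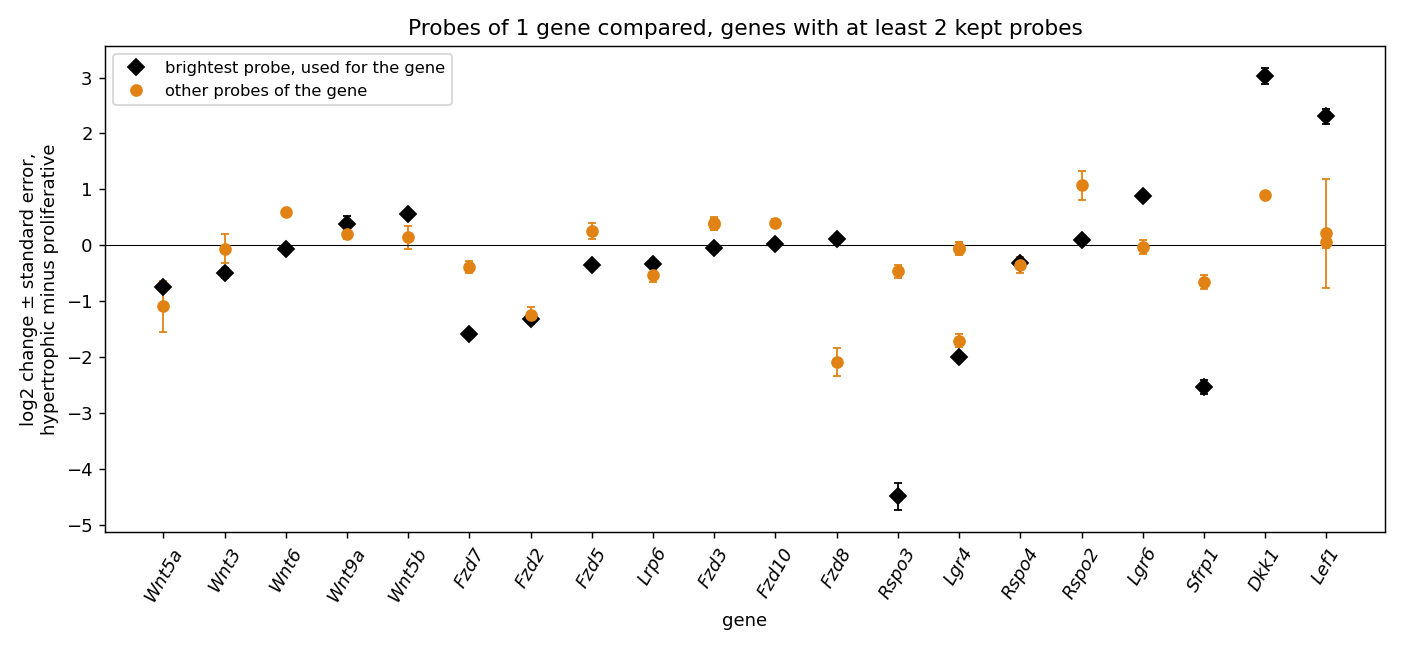
Log2 change from the proliferative to the hypertrophic zone with its standard error for each of 44 probes of the 20 members with several kept probes, with black diamonds for the brightest probe and orange circles for the others. Fzd2 shows close values (-1.31 and -1.25), while the Rspo3 probes lie at -4.49 and -0.47 and the Fzd8 probes at 0.11 and -2.08.

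The rest of the pathway was read from a list of 62 genes on the array that act in Wnt secretion, at co-receptors, in the beta-catenin destruction complex, in the nucleus or in planar polarity. In the hypertrophic against the proliferative zone 21 of them were higher and 24 lower, which is 72.6% against 58.9% of all features. In the prehypertrophic against the proliferative zone 19 were higher and 22 lower (66.1% against 45.9%), and between the later zones 24 were higher and 20 lower (71.0% against 58.1%). The median log2 changes were -0.04, -0.02 and 0.01, so neither direction prevailed. All 12 nuclear genes passed at the first step, 5 higher and 7 lower.

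Among nuclear genes, Tcf7l2, a relative of Lef1 that binds DNA with beta-catenin, rose by 2.97 at the first step and 0.99 at the second on the log2 scale (adjusted p = 5.96e-05 and 0.000649), with 2 of its hypertrophic samples saturated. Of its 3 other probes, 2 rose by 2.66 and 2.88 at the first step and 1 rose by 0.31. Tcf7l1, a relative that mostly represses, rose by 1.21 and 1.35 (adjusted p = 8.09e-05 and 5.58e-05). Ctnnbip1, an inhibitor of the binding of beta-catenin to these factors, fell by 1.96 at the first step (adjusted p = 4.07e-05), and the corepressor gene Tle2 fell by 1.85 (adjusted p = 6.77e-05). Neither passed at the second step, where Ctnnbip1 gave -0.09 and Tle2 gave -0.06.

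In the destruction complex and its relays, Gsk3b, the kinase that marks beta-catenin for degradation, rose by 2.64 and 0.64 (adjusted p = 3.89e-05 and 0.000356). Dact1, a regulator of Dishevelled, fell by 3.81 at the first step and rose by 1.87 at the second (adjusted p = 6.89e-05 and 0.000271), whereas its second probe fell by 0.24 at the first step and gave 0.04 at the second. Cthrc1, a secreted protein tied to the polarity branch, belongs to the co-receptors and receptor regulators of the list. Cthrc1 fell by 3.42 at the first step and rose by 0.69 at the second (adjusted p = 3.88e-05 and 0.000411), and its second probe passed at neither.

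Of the planar polarity genes, Prickle1 fell at both steps (log2 -1.69 and -2.14, adjusted p = 0.00243 and 0.000904), as did its second probe (log2 -1.92 and -1.90). Vangl2, a membrane protein of the same pathway, rose by 1.59 and 0.63 (adjusted p = 5.97e-05 and 0.00039). Of its other probes, 1 fell by 0.21 at the second step. Among the co-receptors and receptor regulators, Rnf43, a ubiquitin ligase that removes Frizzled and that R-spondins counter, rose by 1.82 at the second step (adjusted p = 0.00743). At the first step Rnf43 gave 0.23 (adjusted p = 0.59), and 3 samples in each of the earlier zones were well above background.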

How the data were processed

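Signals were taken from the 12 deposited scanner files, 1 channel of a 2-colour Agilent array each. Per the file headers, the authors' intensity values came from Agilent Feature Extraction 8.1.1.1 with spatial detrending on, background subtraction off and dye normalization, and the deposited flags (other values) are 0 or 1 per spot. A deposited table of log2 values was not used: each column equalled log2 signal less its 75th percentile of some scanner file, but for 1 of 12 columns only was this the file of the sample it was labelled as. All 12 columns matched when the scanner files were sorted by sample title. The group labels used here rest on the scanner files, whose hypertrophic markers followed them.

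Log2 ratios were normalized by loess within each array, with no background step of its own. Ratios with an outlier flag were left out (7249 in all). Spots of a probe were averaged, probes well above background in fewer than 4 of 12 samples were dropped, and the brightest probe stood for a gene, leaving 27173 tested features. Of 41174 probes, 32691 had 1 gene symbol, none had several and 8483 had none. Ratios were fitted with limma 3.58.1 in R 4.3.3 with zone and dye terms (3 residual degrees of freedom) and Benjamini-Hochberg adjustment over all features. Levels are channel values after loess less the 75th percentile of the sample.

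A member had its samples listed where it was well above background in all 4 samples of a zone and changed at least 2-fold with an adjusted p under 0.05 in a comparison. From the list of other pathway genes the 10 with the largest called change were named. The members, lists and rules were chosen with earlier results of these data known. The code was tested on simulated data. Alternatives changed the normalization, a signal offset of 50, the filter, flagged spots, the use of probes, the dye term, the moderation, a separate-channel fit with and without the replicate number, and each array left out. Sequences are from RefSeq (GRCm38.p6), where 11 of the 16 members were found.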

Additional observations from a re-analysis of the deposited data

Results flagged for a closer look

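In 3 of 48 sets of 4 samples, 1 sample stood apart from the other 3 by more than Dixon's 95% critical value, where chance gives about 1 in 20. Dkk1 was -3.14 in proliferative replicate 1, against -2.64 to -2.54 in the other proliferative samples. Fzd7 was -2.42 in prehypertrophic replicate 4, against -2.30 to -2.29. Wnt11 was -1.05 in proliferative replicate 2, against -1.33 to -1.32. In each case the sample stayed on its zone's side of the other zones.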

How the results depend on the processing

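Each of the 48 differences of the 16 members was recomputed under 18 alternatives, 864 values in all, of which 851 kept their direction and their side of the threshold, 12 lost the call, 1 gained it and none reversed. The gained call was Sfrp1 between the later zones in the separate-channel fit (-0.29, adjusted p = 0.0176). The losses concern Lef1, Rspo3, Wnt4, Wnt5a, Wnt11, Fzd2 and Lgr4 and are given with these genes above. Of the counts, the members highest in the prehypertrophic zone (5) numbered 3 to 4 with an array left out and 1 with probes averaged. Members lowest there (1) numbered 0 with probes averaged, 2 in the separate-channel fit and 2 in that fit with the replicate block, and remained 1 with any array left out. Members higher in the prehypertrophic than in the proliferative zone (13) numbered 7 to 10 with an array left out, 7 without array 4 (hypertrophic replicate 4 and prehypertrophic replicate 2). The cause of these shifts was not tested, except that averaging mixes probes that moved differently.

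Samples share only a replicate number. Same-numbered samples on different arrays had correlations of their deviations from -0.249 to 0.267 (8 pairs, 2 over 0.1), and those on 1 array from 0.451 to 0.575 (4 pairs). The separate-channel fit with a replicate block called 14 members higher and 23 lower in the hypertrophic than in the proliferative zone, and none of the 48 differences changed its call. The separate-channel fits kept outlier spots, since the method takes no missing values. Signal over background limits Dkk2 and Wnt2, and 6 arrays leave 3 residual degrees of freedom.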

Other observations

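Some members passed in no comparison by their brightest probe while a dimmer probe of the same gene did. These genes were picked after their values were seen. The dimmer Fzd8 probe was lower in the hypertrophic than in the proliferative zone by -2.08 (limma adjusted p = 0.00303 over probes), where the probe used gave 0.11. The dimmer Rspo2 probe, well above background in 7 of the 12 samples, was higher by 1.07 (adjusted p = 0.0276), against 0.09 for the probe used. The dimmer Fzd10 probe was higher by 0.40 (adjusted p = 0.00775), against 0.01. A dimmer Fzd3 probe was higher in the hypertrophic than in the prehypertrophic zone by 0.61 (adjusted p = 0.0147 over probes). There the Fzd3 probe used gave -0.08, and another dimmer probe gave -0.07 and did not pass. Wnt6 did pass by its brightest probe, but its probes moved in opposite directions at the second step. There the brighter was called lower (log2 -0.10, adjusted p = 0.0292) and the dimmer higher (log2 0.46, adjusted p = 0.000925 over probes). From the proliferative to the hypertrophic zone the dimmer Wnt6 probe was higher by 0.59 (adjusted p = 0.000341 over probes), where the probe used gave -0.07.

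Wnt10a, a ligand known from skin and tooth development, was at -4.86 in proliferative replicate 1 and at -3.05 to -2.62 in the other proliferative samples. Its hypertrophic to proliferative log2 ratio was 2.51 on array 1 and 0.27 on array 2, and the fitted change of 1.15 did not pass (adjusted p = 0.0736). Wnt2 was at -6.49 in hypertrophic replicate 1, where it was not well above background, and at -4.61 to -3.95 in the other hypertrophic samples.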
